A study of Mus musculus with 8 samples.

Results

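The genes that build the basement membrane were followed through wild-type and enhancer-deleted mouse embryonic stem cells: the type IV collagen chains Col4a1 and Col4a2, the laminin chains Lama1, Lama5, Lamb1 and Lamc1, the nidogens Nid1 and Nid2, the heparan sulfate proteoglycan perlecan (Hspg2) and the collagen-binding glycoprotein Sparc. They were taken by name from a list of 10 symbols, and all 10 of them were found among the 17727 genes used, each with 1 row in every sample. Total RNA had been sequenced from E14TG2a cells, an embryonic stem cell line of the mouse strain 129/Ola, grown without feeder cells on gelatin with serum, leukaemia inhibitory factor and inhibitors of the kinases GSK3 and MEK. Unedited cells (WT) stood beside 3 enhancer knockouts made with CRISPR/Cas9, named E1-KO, E2-KO and E3-KO, and each of the 4 groups had 2 samples. All 4 groups shared the line, the medium and both inhibitors. The labels give neither the positions of the deleted enhancers nor whether a knockout is 1 clone, no value here checks the deletions themselves, and edited cells with an intact enhancer were not analysed here, so the enhancer loss cannot be told apart from differences of clone, culture or library. The stated interest of the study was how enhancer and promoter contacts bear on Sox2, a transcription factor of pluripotent cells.

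A basement membrane is a thin sheet of extracellular matrix beneath epithelia. Laminins are trimers of an alpha, a beta and a gamma chain that polymerise on the cell surface, type IV collagen forms a second network, and nidogens and perlecan link them. In the early embryo the primitive endoderm and its parietal derivative secrete laminin with an alpha 1 chain, type IV collagen and Sparc in large amounts, and these genes are therefore widely read as endoderm genes in stem cell cultures. Stem cells themselves also make laminin, nidogen and perlecan.

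Against WT, the laminin alpha 1 chain, the beta 1 chain, the nidogen Nid2 and perlecan fell in all 3 knockouts, while Sparc rose in all 3. The fall of the beta 1 chain in E3-KO did not pass the test under some other scalings of the samples. Col4a1 rose in E2-KO and E3-KO, whereas its partner chain Col4a2 passed the test in none. Lama5 moved in opposite directions, lower in E1-KO and higher in E3-KO. The largest change of the 10 genes was that of Lama1 in E1-KO, from 28.8 ± 0.899 to 4.82 ± 0.124 FPKM (mean ± SD, n = 2 each), a 5.97-fold lower mean. FPKM counts sequenced fragments relative to transcript length and library depth. Log2 fold changes were taken of FPKM + 1, so the changes of low genes are understated. All adjusted p-values are two-sided, from limma-trend over all 11272 tested genes with Benjamini-Hochberg adjustment, and a gene was called under 0.05.

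**Figure D1:**
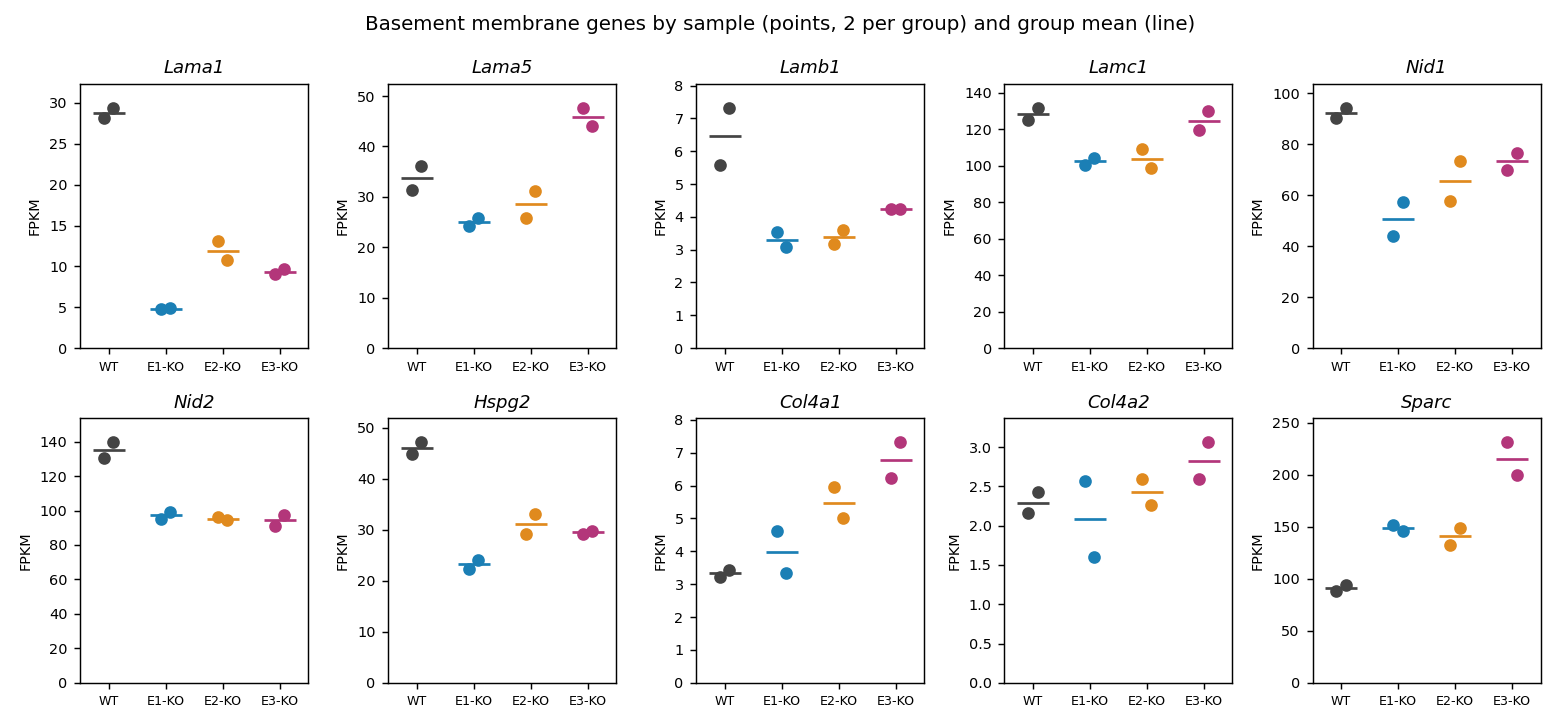
FPKM of the 10 basement membrane genes (vertical axes, each from 0) in WT, E1-KO, E2-KO and E3-KO. Points are samples, 2 per group, and lines are group means. The WT samples of Lama1, at 28.15 and 29.4 FPKM, lie far above all knockout samples, and those of Sparc, at 87.9 and 94.2 FPKM, lie below all of them.

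Over the whole series, samples summed to between 454974 and 532007 FPKM, and their absolute depth is unknown. The commonest ratio between the values of low genes in a sample and in WT replicate 1 gave rough relative depths of 0.785 (E3-KO replicate 1) to 1.007 (E3-KO replicate 2). Only 5.16% (E2-KO replicate 2) to 13.69% (WT replicate 2) of those ratios lay at the commonest value, so these depths are uncertain. Sox2 lay at 130.5 and 136.3 FPKM in WT and between 58.0 and 113.6 FPKM in the knockouts. The pluripotency genes Pou5f1 (360.0 to 553.1 FPKM) and Nanog (372.8 to 618.1 FPKM) were high in all 8 samples. Many genes differed from WT, at 38.0% (E1-KO), 36.1% (E2-KO) and 44.7% (E3-KO) of those tested. The median over all tested genes of the log2 fold change, in the same order, was -0.06, -0.08 and -0.15, and the changes below are to be read against it. In E3-KO, 1568 genes were called higher and 3470 lower, against 2358 and 2369 after median-ratio scaling. The corresponding counts were 1695 and 2589 against 2062 and 2169 (E1-KO), then 1596 and 2474 against 2003 and 1967 (E2-KO). Between knockouts, E3-KO had 1061 genes higher and 1849 lower than E1-KO (1450 and 1296 after median-ratio scaling), and 618 higher and 1135 lower than E2-KO (878 and 817).

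Promoter sequence shows how the collagen pair is arranged. Of the 10 genes, 7 had a window in the RefSeq promoter table (GRCm38.p6), which runs from 250 bases before to 50 bases after a start site. Col4a1 and Col4a2 lie on opposite strands of chromosome 8 with starts 21 bases apart, and each start lies just inside the other gene. Their windows share 78 bases (chr8:11312777-11312854), shown in capitals, each written 5′ to 3′ on the strand of its own gene. Those of perlecan, which fell in all 3 knockouts, and of Sparc, which rose in all 3, are shown because the genes moved in opposite directions. There capitals mark the GC box GGGCGG on either strand.
Col4a1 (chr8:11312777-11313076, minus strand): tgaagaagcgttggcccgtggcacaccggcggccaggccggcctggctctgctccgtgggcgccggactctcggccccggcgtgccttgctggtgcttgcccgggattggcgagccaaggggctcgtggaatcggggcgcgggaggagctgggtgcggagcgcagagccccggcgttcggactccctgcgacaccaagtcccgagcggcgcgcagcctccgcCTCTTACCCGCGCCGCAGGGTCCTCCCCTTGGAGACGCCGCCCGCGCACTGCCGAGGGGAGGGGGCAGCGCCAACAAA
Col4a2 (chr8:11312555-11312854, plus strand): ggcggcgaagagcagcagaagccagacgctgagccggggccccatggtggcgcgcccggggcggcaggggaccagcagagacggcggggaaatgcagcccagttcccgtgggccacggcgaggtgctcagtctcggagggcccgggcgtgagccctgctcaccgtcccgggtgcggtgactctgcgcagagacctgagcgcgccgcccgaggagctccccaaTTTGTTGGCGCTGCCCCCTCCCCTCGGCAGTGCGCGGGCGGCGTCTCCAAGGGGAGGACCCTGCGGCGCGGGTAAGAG
Hspg2 (chr4:137468553-137468852, plus strand): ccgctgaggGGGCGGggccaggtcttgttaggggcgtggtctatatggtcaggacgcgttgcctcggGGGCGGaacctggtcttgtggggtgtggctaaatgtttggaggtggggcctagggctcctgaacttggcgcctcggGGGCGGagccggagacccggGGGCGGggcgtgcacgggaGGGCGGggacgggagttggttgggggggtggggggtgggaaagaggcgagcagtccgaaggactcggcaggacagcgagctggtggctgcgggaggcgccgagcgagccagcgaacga
Sparc (chr11:55420031-55420330, minus strand): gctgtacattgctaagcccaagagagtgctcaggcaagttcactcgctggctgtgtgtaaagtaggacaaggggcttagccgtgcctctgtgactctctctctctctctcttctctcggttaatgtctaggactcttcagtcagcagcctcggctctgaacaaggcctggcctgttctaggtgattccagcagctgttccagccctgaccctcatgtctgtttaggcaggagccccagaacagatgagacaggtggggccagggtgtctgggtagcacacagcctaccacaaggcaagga

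The shared segment of the collagen pair holds a GC box and lies in windows with 74% (Col4a1) and 73.7% (Col4a2) G and C, against a median of 52.7% over 32851 windows. The Hspg2 window holds 5 GC boxes and 70.3% G and C. In contrast, the Sparc window holds none and has 55.3% G and C, and it lies inside the longer gene interval of the GENCODE annotation. Over the 7 windows, 6 hold a GC box (GGGCGG, both strands), against 35.7% of all windows. A CCAAT box (CCAAT, both strands) is in 4 of the 7 windows and in 37.4% of all. None of the 7 holds the TATA box letters TATAAA (13.6% of all windows), the GATA factor letters AGATAA (11.2%) or TGATAA (9.05%), or the SOX factor letters ACAATG (12.6%), each on both strands. Nor does any hold the E-box CACGTG (7.15%). These letters describe the windows and identify no bound site.

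Lama1 encodes the alpha 1 chain, the laminin chain of the earliest embryonic basement membranes (chromosome 17, 67697259 to 67822647 in GRCm38, ENSMUSG00000032796). Its level was 28.15 and 29.4 FPKM in WT, 4.73 and 4.91 (E1-KO), 13.1 and 10.8 (E2-KO), and 9.03 and 9.71 (E3-KO). All 6 knockout samples lay below both WT samples, with no overlap between any of the 4 groups. The log2 fold changes against WT were -2.355 for E1-KO (limma-trend adjusted p = 2.32e-05), -1.21 for E2-KO (0.000316) and -1.52 for E3-KO (8.3e-05), with a standard error of 0.12 each. The knockouts also differed among themselves. The level of E1-KO was exceeded in E3-KO by 0.83 (limma-trend adjusted p = 0.00169) and in E2-KO by 1.146 (0.0139) on the log2 scale. The difference between E2-KO and E1-KO did not pass when only those 4 samples were fitted (limma-trend adjusted p = 0.0536), with all genes above 0 (0.0546), or without E1-KO replicate 1 (0.0762), E1-KO replicate 2 (0.0581) or E2-KO replicate 1 (0.0618). E3-KO and E2-KO were not separated by the test (-0.31, limma-trend adjusted p = 0.114).

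Lama5, the alpha chain that spreads through most epithelia later in development (chromosome 2, 180176373 to 180225859), took another course. It lay at 31.4 and 36.0 FPKM in WT, 24.3 and 25.8 (E1-KO), 25.8 and 31.25 (E2-KO), and 47.7 and 44.1 (E3-KO). E3-KO was the highest group and E1-KO and E2-KO lay below both WT samples, overlapping each other. It fell by 0.41 in E1-KO (adjusted p = 0.026, limma-trend) and rose by 0.44 in E3-KO (adjusted p = 0.0174, limma-trend), with a standard error of 0.12. In E2-KO the log2 fold change was -0.24 (limma-trend adjusted p = 0.156). Only 1.57% of tested genes were called in opposite directions among the knockouts, and Lama5 was the member among them. The direct differences were 0.85 for E3-KO over E1-KO (limma-trend adjusted p = 0.00151) and 0.67 for E3-KO over E2-KO (0.00794). Each call against WT was lost when a sample was left out, at most to an adjusted p of 0.184 without WT replicate 2 in E1-KO (0.141 and 0.0769 without E1-KO replicates 1 and 2) and of 0.13 without WT replicate 1 in E3-KO (0.072 without E3-KO replicate 1).

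The balance of the alpha chains within a sample is not altered by a factor common to the whole sample, though quantile normalization can alter it. Lama1 made up 47.3% and 44.95% of the summed FPKM of Lama1 and Lama5 in WT. The share was 16.3% and 16.0% (E1-KO), 33.6% and 25.65% (E2-KO) and 15.9% and 18.0% (E3-KO). All 6 knockout samples were below WT, and E1-KO and E3-KO lay close together although their summed levels did not. That sum was 59.6 and 65.5 FPKM in WT, 29.0 and 30.7 (E1-KO), 38.9 and 42.0 (E2-KO), and 56.7 and 53.85 (E3-KO). These ratios were chosen after the values had been seen and carry no test.

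**Figure D2:**
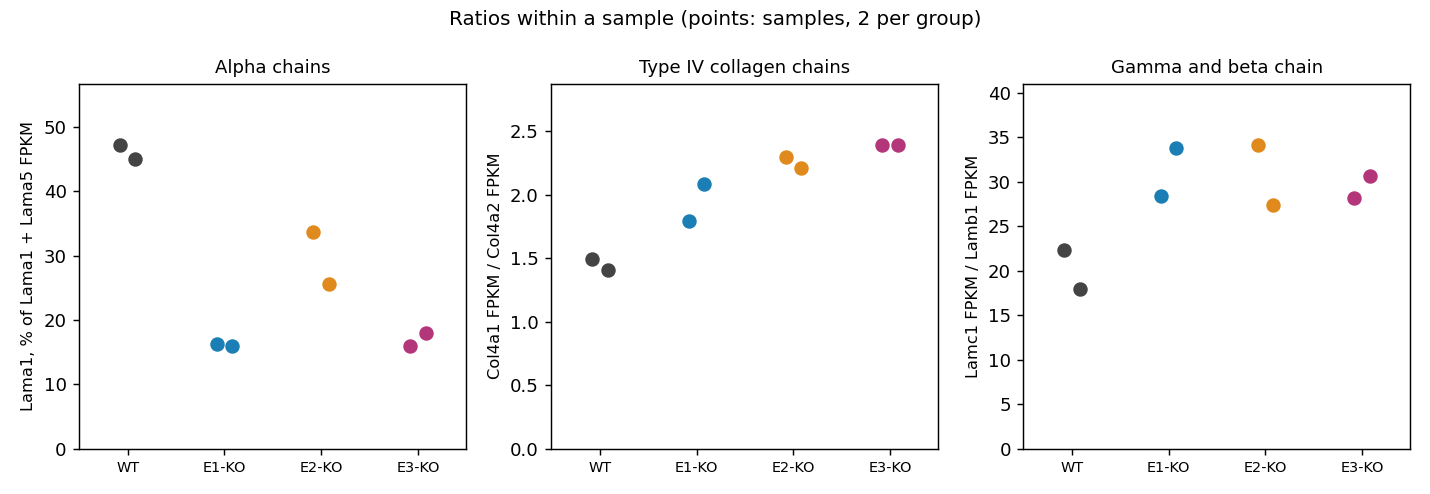
Ratios within a sample, 2 points per group and axes from 0: the share of Lama1 in the summed FPKM of Lama1 and Lama5 (%), the ratio of Col4a1 to Col4a2, and the ratio of Lamc1 to Lamb1. In the first panel WT lies at 47.3% and 44.95% and the knockouts at 33.6% or less. In the second, WT lies at 1.496 and 1.409 and the knockouts at 1.79 or more. The ratios carry no test.

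Lamb1 and Lamc1 encode the beta 1 and gamma 1 chains that join either alpha chain. Lamb1 (chromosome 12, 31265234 to 31329644) lay at 5.58 and 7.33 FPKM in WT, 3.53 and 3.085 (E1-KO), 3.18 and 3.60 (E2-KO), and 4.233 and 4.235 (E3-KO). Both WT samples were above all knockout samples, though they were also far apart from each other. Its log2 fold changes were -0.78 (limma-trend adjusted p = 0.0045), -0.76 (0.00575) and -0.50 (0.0256), with a standard error of 0.15. The call in E3-KO was lost under quantile normalization (-0.29, limma-trend adjusted p = 0.14), median-ratio scaling (-0.36, 0.0829), with all genes above 0 (0.0557) and without WT replicate 2 (-0.33, 0.204), E3-KO replicate 1 (0.0689) or E3-KO replicate 2 (0.0741). Without WT replicate 2 that in E2-KO was lost as well (-0.59, limma-trend adjusted p = 0.0582). No difference between knockouts passed.

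Lamc1 (chromosome 1, 153218922 to 153332786) is the gamma chain of nearly all embryonic laminins and was the most abundant laminin chain here. It lay at 124.8 and 131.7 FPKM in WT, 100.4 and 104.4 (E1-KO), 108.9 and 98.4 (E2-KO), and 119.5 and 129.8 (E3-KO). E1-KO and E2-KO were below both WT samples, and E3-KO overlapped WT. The log2 fold changes were -0.32 for E1-KO (limma-trend adjusted p = 0.0307), -0.31 for E2-KO (0.038) and -0.04 for E3-KO (0.758), with a standard error of 0.10. Both calls were lost under median-ratio scaling (limma-trend adjusted p = 0.0706 and 0.103) and without the variance trend (0.0511 and 0.0619), and that in E2-KO also with the replicate block (0.0545) or fitting the pair alone (0.0608). Leaving out any sample of the pair took the E1-KO value to between 0.0945 (without WT replicate 1) and 0.181 (without WT replicate 2), with 0.166 and 0.104 without E1-KO replicates 1 and 2. In E2-KO the value without WT replicate 2 was 0.21, with 0.112 without WT replicate 1, 0.121 without E2-KO replicate 2, and 0.072 and 0.0725 without E1-KO replicates 1 and 2. In E3-KO the small difference changed sign with the scaling (0.13 under median-ratio scaling). On the deposited scale E3-KO was not separated from the other knockouts, but it exceeded E1-KO and E2-KO under all 3 other scalings. The differences were 0.36 and 0.39 with quantile normalization (limma-trend adjusted p = 0.0185 and 0.022), 0.38 and 0.35 with median ratios (0.0213 and 0.0413) and 0.36 and 0.38 without the 50 highest genes (0.024 and 0.0281).

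On the FPKM scale, which is per length, Lamc1 was 22.35 and 18.0 times the level of Lamb1 in WT and 27.4 to 34.2 times in the knockouts. This ratio also carries no test. Lamb2, the other widely made beta chain, was not analysed here. The remaining laminin and type IV collagen chains were mostly low, and of the 9 others considered, 7 stayed below 1 FPKM in all 8 samples. Lama3, a chain of the laminin of skin and other epithelia, was tested. Lama3 rose from 4.77 and 5.33 FPKM in WT to 16.9 and 13.2 in E3-KO (1.40, limma-trend adjusted p = 0.00019). The E2-KO samples lay between, at 7.42 and 6.80 FPKM.

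The nidogens bridge laminin to type IV collagen. Nid1 (chromosome 13, 13437551 to 13512269) lay at 90.1 and 94.3 FPKM in WT, 43.9 and 57.4 (E1-KO), 57.8 and 73.3 (E2-KO), and 70.0 and 76.6 (E3-KO). All knockout samples were below WT, with a wide spread in E1-KO and E2-KO. Its log2 fold changes were -0.86 (limma-trend adjusted p = 0.0027), -0.50 (0.0304) and -0.33 (0.104), with a standard error of 0.15. In E3-KO the fall passed with the replicate block (limma-trend adjusted p = 0.0466) and with the pair alone (0.0343). In E2-KO it was lost under median-ratio scaling (limma-trend adjusted p = 0.0647), with all genes above 0 (0.0666) and without E2-KO replicate 1 (-0.33, 0.161), WT replicate 1 (0.0995) or WT replicate 2 (0.146). Between knockouts, Nid1 was higher in E3-KO than in E1-KO by 0.53 (limma-trend adjusted p = 0.0298), a difference lost with all genes above 0 (0.0626) and without E1-KO replicate 1 (0.35, 0.215), E3-KO replicate 1 (0.0623), E3-KO replicate 2 (0.111) or either WT sample (0.053).

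Nid2 (chromosome 14, 19751265 to 19811787) fell by nearly the same amount in each knockout. It lay at 130.2 and 139.5 FPKM in WT, 95.2 and 99.2 (E1-KO), 96.3 and 94.2 (E2-KO), and 91.15 and 97.6 (E3-KO). The 6 knockout samples overlapped one another and all lay below WT. The log2 fold changes were -0.47 (limma-trend adjusted p = 0.00483), -0.50 (0.004) and -0.51 (0.00247), with a standard error of 0.09, and no difference between knockouts passed (-0.04 to -0.01). The E1-KO call was lost without E1-KO replicate 1 (limma-trend adjusted p = 0.051) or WT replicate 2 (0.057). Nid2 shares 437 exon bases with Rtraf on the opposite strand, and no source used here says that reads were assigned by strand. Rtraf was higher in all 6 knockout samples (133.1 to 187.0 FPKM) than in WT (116.9 and 122.0), as were 15.3% of tested genes. It was called in E1-KO (0.51, limma-trend adjusted p = 0.0349) but not in E2-KO (0.40, 0.0841) or E3-KO (0.36, 0.0974). Whether shared reads bear on the values of Nid2 was not tested.

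Perlecan (Hspg2, chromosome 4, 137468769 to 137570630) is the large proteoglycan that carries heparan sulfate into the sheet. It lay at 44.8 and 47.1 FPKM in WT, 22.3 and 24.2 (E1-KO), 29.1 and 33.15 (E2-KO), and 29.2 and 29.75 (E3-KO). All knockout samples were below WT, lowest in E1-KO. The log2 fold changes were -0.96 (limma-trend adjusted p = 0.000325), -0.55 (0.00402) and -0.62 (0.00161), with a standard error of 0.10. E1-KO lay below E3-KO, a difference of 0.33 (limma-trend adjusted p = 0.0413). That difference was lost when the pair was fitted alone (limma-trend adjusted p = 0.0622), without the variance trend (0.063), or without E1-KO replicate 1 (0.23), E1-KO replicate 2 (0.0998), E3-KO replicate 1 (0.089), E3-KO replicate 2 (0.098), WT replicate 1 (0.0757) or WT replicate 2 (0.0758).

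Col4a1 and Col4a2 encode the chains of the common type IV collagen, a trimer of 2 alpha 1 chains and 1 alpha 2 chain, and they were the lowest of the 10 genes in WT. Col4a1 (chromosome 8, 11198423 to 11312826) lay at 3.23 and 3.42 FPKM in WT, 4.62 and 3.35 (E1-KO), 5.945 and 5.01 (E2-KO), and 6.225 and 7.31 (E3-KO). E1-KO overlapped WT, and all E2-KO and E3-KO samples were above both. The log2 fold changes were 0.19 (limma-trend adjusted p = 0.378), 0.58 (0.0229) and 0.84 (0.0034), with a standard error of 0.16. Col4a1 was also higher in E3-KO than in E1-KO, by 0.65 (limma-trend adjusted p = 0.0187), lost without E1-KO replicate 2 (0.46, 0.133) or E3-KO replicate 2 (0.082). In E2-KO the call was lost when every gene above 0 was tested (limma-trend adjusted p = 0.0564) and without E2-KO replicate 1 (0.115), WT replicate 1 (0.111) or WT replicate 2 (0.0887).

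Col4a2 (chromosome 8, 11312805 to 11449287) starts on the opposite strand, within the shared segment printed above. It lay at 2.16 and 2.43 FPKM in WT, 2.57 and 1.61 (E1-KO), 2.59 and 2.27 (E2-KO), and 2.60 and 3.06 (E3-KO). E1-KO and E2-KO overlapped WT, and both E3-KO samples were above it. Its log2 fold changes of -0.11, 0.06 and 0.22 did not pass (limma-trend adjusted p = 0.657, 0.821 and 0.355, standard error 0.18). The ratio of Col4a1 to Col4a2 within a sample was 1.496 and 1.409 in WT, 1.79 and 2.08 (E1-KO), 2.30 and 2.21 (E2-KO), and 2.40 and 2.39 (E3-KO), so it was higher in all 6 knockout samples. Like the alpha chain ratios it carries no test, and both genes are low. In E1-KO neither chain was separated from WT by the test. The exons of the pair overlap by 22 bases on opposite strands.

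Sparc (chromosome 11, 55394500 to 55423183), a small glycoprotein that binds collagen and calcium and assists collagen assembly, was the only one of the 10 called higher in every knockout. It lay at 87.9 and 94.2 FPKM in WT, 152.2 and 145.8 (E1-KO), 133.0 and 148.8 (E2-KO), and 231.2 and 199.5 (E3-KO). All 6 knockout samples were above WT, and both E3-KO samples were above the other 4. The log2 fold changes were 0.71 (limma-trend adjusted p = 0.00168), 0.62 (0.00322) and 1.23 (0.000106), with a standard error of 0.11. The excess of E3-KO was 0.52 over E1-KO (limma-trend adjusted p = 0.00868) and 0.61 over E2-KO (0.00826). The first difference was lost without E1-KO replicate 1 (limma-trend adjusted p = 0.0525) or E1-KO replicate 2 (0.0675), and the second when the pair was fitted alone (0.0611). Sparc was the fourth highest of the 10 in WT, near Nid1, and the highest in each knockout group.

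**Figure D3:**
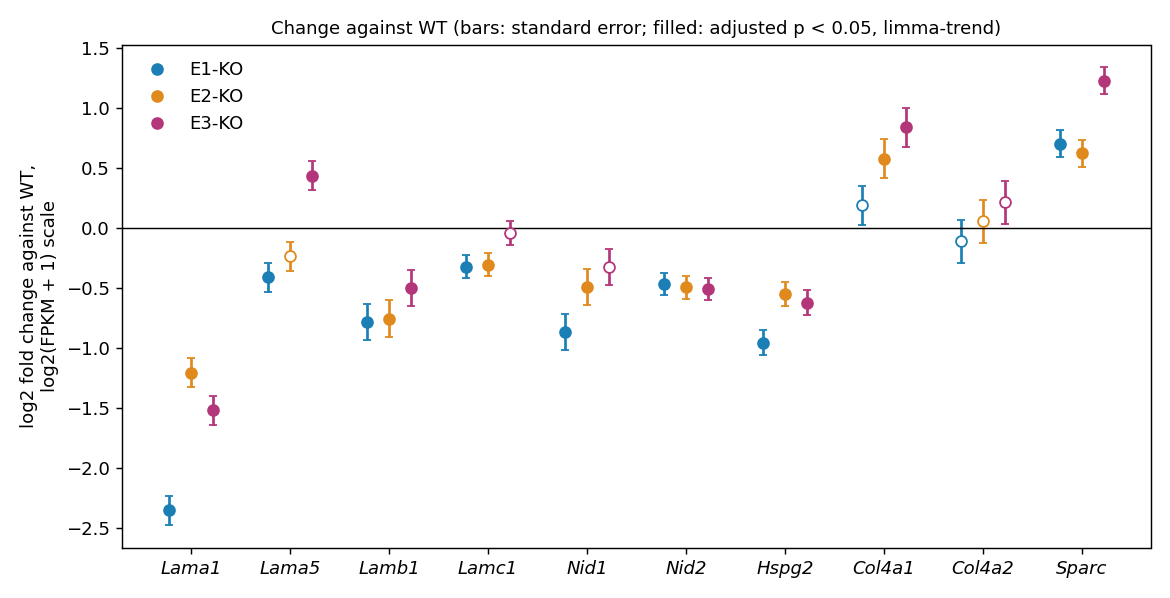
Log2 fold change against WT of the 10 genes in E1-KO, E2-KO and E3-KO, on the log2(FPKM + 1) scale. Bars are standard errors of limma-trend and filled points have an adjusted p under 0.05. Lama1, Lamb1, Nid2 and Hspg2 are filled below 0 in all 3 knockouts, Sparc is filled above 0 in all 3, and Lama5 is filled below 0 in E1-KO and above 0 in E3-KO.

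Counted together, 8 of the 10 genes were called in E1-KO (1 higher, 7 lower), beside 38.0% of all tested genes (15.0% higher, 23.0% lower). For E2-KO 8 were called (2 higher, 6 lower), beside 36.1% (14.2% higher, 21.9% lower). For E3-KO 7 were called (3 higher, 4 lower), beside 44.7% (13.9% higher, 30.8% lower). The median log2 fold change of the 10 was -0.44, -0.40 and -0.19, against -0.06, -0.08 and -0.15 over all tested genes. Of the 10, 4 were called lower in all 3 knockouts beside 13.0% of tested genes, and 1 of 10 was higher in all 3 beside 6.56%. For 5 of the 10 genes all 6 knockout samples lay below both WT samples, beside 28.5% of tested genes, and for 1 of the 10 they lay above, beside 15.3%. These comparisons share the WT samples. Between knockouts, 1 of 10 was called for E2-KO and E1-KO (0.834% of tested genes), 6 of 10 for E3-KO and E1-KO (25.8%) and 2 of 10 for E3-KO and E2-KO (15.6%). All of these were higher in E3-KO, or in E2-KO for the first pair, and none was lower. Of all tested genes 0.488% were higher and 0.346% lower for the first pair, 9.41% and 16.4% for the second, and 5.48% and 10.1% for the last.

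Over the 8 samples the 10 genes fell into more than 1 pattern. Lama1 and Hspg2 were the most alike (Pearson r = 0.97 of log2 values, n = 8), and Lama1 had r of 0.82 to 0.85 with Lamb1, Nid1 and Nid2. Sparc ran against Nid2 (r = -0.86) and with Col4a1 (r = 0.79). Col4a1 and Col4a2 had r = 0.77, and 451 of 11271 other tested genes were more like Col4a1 than Col4a2 was. The 5 genes outside the list most like Col4a1 were Ankrd45, Lrriq4, Plcg2, Kcnj14 and Adap1 (r = 0.96 to 0.97). Kcnj14 lay at 0.372 and 0.165 FPKM in WT and at 2.0 and 2.37 in E3-KO. It reached the mean of 1 FPKM needed for testing only through the E3-KO samples, where Col4a1 was also highest, so its likeness owes part to that filter. Those most like Lama1 were Rps2, St6gal1, St8sia6, Ooep and Ranbp9 (r = 0.98), with Hspg2 next. These coefficients describe 8 samples in 4 groups and carry no test, since the samples of a group share their genotype.

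**Figure D4:**
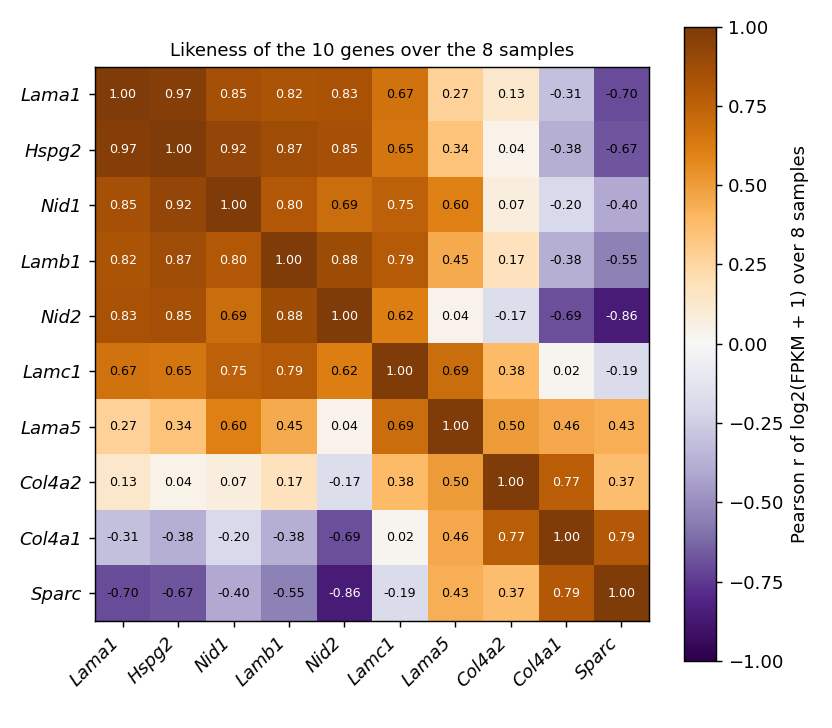
Pearson correlation of log2(FPKM + 1) over the 8 samples between each pair of the 10 genes, from -1 to 1. Lama1, Hspg2, Nid1, Lamb1 and Nid2 form a block with r of 0.69 to 0.97, and Sparc has negative values with all 5.

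Other basement membrane proteins were counted from a list of 18, of which 8 were tested. E1-KO had 1 higher and 4 lower, E2-KO 1 and 3, and E3-KO 0 and 2, with median log2 fold changes of -0.42, -0.25 and 0.04. Counts of this and the following lists stand beside 15.0%, 14.2% and 13.9% of all tested genes called higher and 23.0%, 21.9% and 30.8% called lower (E1-KO, E2-KO, E3-KO), and medians beside -0.06, -0.08 and -0.15. Agrin (Agrn), a second heparan sulfate proteoglycan, fell in all 3 knockouts, from 49.4 and 59.8 FPKM in WT to 33.8 to 38.0 FPKM. The fibulin Fbln1 also fell in all 3 (-0.61, -0.67 and -0.54). Tinagl1, a matrix protein that binds laminin, fell in E1-KO and E2-KO (-1.26 and -1.30) and had a log2 fold change of 0.10 in E3-KO (limma-trend adjusted p = 0.694). E1-KO and E2-KO had more Ntn1, a secreted relative of laminin (0.62 and 0.97).

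Of 21 receptors for these proteins, 16 were tested. E1-KO had 3 higher and 7 lower, E2-KO 3 and 3, and E3-KO 3 and 5, with medians of -0.18, -0.20 and 0.08. The syndecan Sdc4, a heparan sulfate co-receptor, fell from 81.0 and 81.9 FPKM in WT to 14.2 and 13.4 (E1-KO), 10.9 and 13.85 (E2-KO), and 44.1 and 35.65 (E3-KO). Among laminin-binding integrin chains, Itga3 rose in all 3 (1.19, 0.86 and 0.73) and Itga6 fell in all 3 (-0.40, -0.65 and -0.51). For the shared beta chain Itgb1 all 6 knockout samples lay below both WT samples, with log2 fold changes of -0.25, -0.29 and -0.31 (limma-trend adjusted p = 0.0796, 0.0548 and 0.0344). Bcam, a receptor for the alpha 5 chain of laminin, fell in E3-KO from 57.8 and 60.2 to 23.2 and 20.3 FPKM (-1.40), the group in which Lama5 was highest. Itga9 rose in both E1-KO and E2-KO, from 0.721 and 0.931 FPKM to between 3.97 and 7.13.

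Genes that fold, modify and export collagen numbered 24 on the list used, and 18 were tested. E1-KO had 3 higher and 4 lower, while E2-KO and E3-KO each had 1 higher and 7 lower, and the medians were -0.22, -0.36 and -0.21. The collagen chaperone Serpinh1 was higher in both E1-KO (0.90) and E2-KO (0.57) and had a log2 fold change of -0.11 in E3-KO (limma-trend adjusted p = 0.387), where Col4a1 was highest. P3h1, a prolyl hydroxylase, fell in all 3 (-1.13, -0.55 and -0.66), as did Sec23a of the coat that carries secreted proteins out of the endoplasmic reticulum (-0.73, -0.59 and -0.57). P4ha1, a subunit of the main collagen prolyl hydroxylase, fell in E2-KO and E3-KO (-1.06 and -0.73).

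Of 19 matrix proteases and inhibitors, 13 were tested, with 2 higher and 4 lower (E1-KO), 2 and 3 (E2-KO) and 4 and 4 (E3-KO), and medians of 0.02, -0.06 and 0.16. The type IV collagenase Mmp2 fell in all 3, from 5.88 and 6.00 FPKM in WT to 0.932 and 0.935 (E1-KO), 1.85 and 1.61 (E2-KO), and 4.66 and 4.02 (E3-KO). Mmp14, the membrane protease that activates it, rose in E1-KO (0.68) and fell in E3-KO (-1.17). Serpine2, a protease inhibitor, fell in E1-KO and E2-KO (-1.46 and -0.90) and rose in E3-KO (0.51). The cathepsin Ctsb fell in all 3 (-0.84, -0.94 and -0.90).

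**Figure D5:**
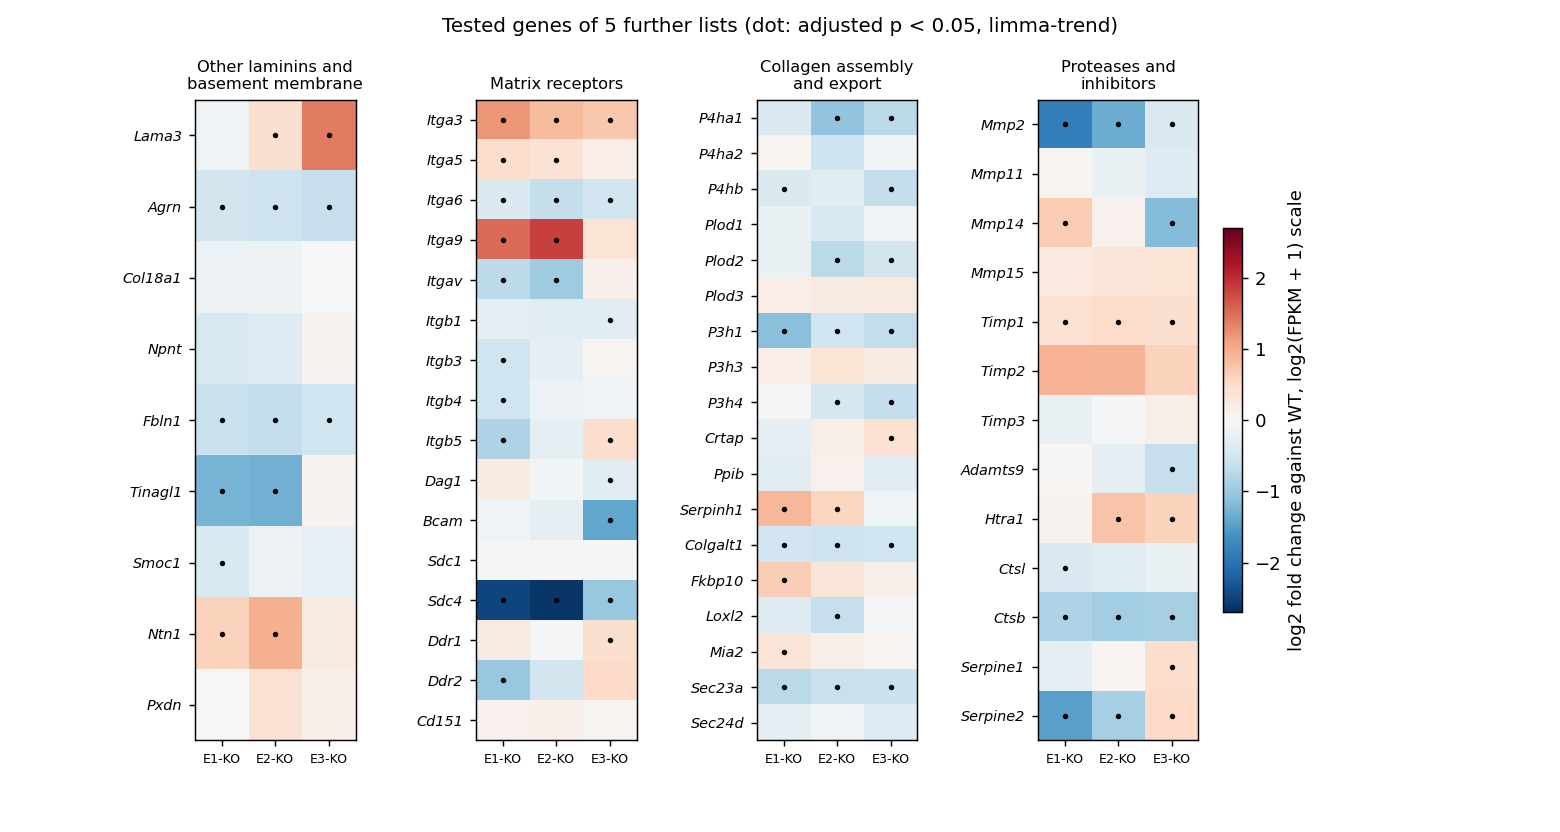
Log2 fold change against WT (colour, log2(FPKM + 1) scale) of the tested genes of the matrix lists (other laminins and basement membrane proteins, receptors, collagen assembly, proteases and inhibitors) in E1-KO, E2-KO and E3-KO. A dot marks an adjusted p under 0.05 by limma-trend. Among the genes plotted, the darkest fall is that of Sdc4 in E2-KO, at -2.63, and the strongest rise is that of Itga9 in E2-KO, at 1.84. In E3-KO, Bcam (-1.40) and Mmp14 (-1.17) fell further than Sdc4 (-1.02).

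Markers of other cell types were read beside these results. Of 23 markers of primitive, parietal and visceral endoderm, 19 were measured and 7 tested, and 10 stayed below 1 FPKM in all 8 samples, among them Sox17, Sox7, Foxa2, Pdgfra, Afp, Amn and Cubn. Gata4 and Dab2 were not analysed here. The summed level of the measured markers was 463.8 and 491.8 FPKM in WT and 188.7 to 218.7 in the knockouts, and most of it was Apoe (434.8 and 466.9 in WT, 148.3 to 198.4 in the knockouts). E1-KO had 1 higher and 2 lower, E2-KO 1 and 3, and E3-KO 3 (Gata6 included) and 2, with medians of -0.64, -0.49 and -0.17. Gata6, a driver of primitive endoderm, lay at 1.04 and 1.15 FPKM in WT, 0.344 and 0.350 (E1-KO), 0.392 and 0.597 (E2-KO), and 3.72 and 1.76 (E3-KO). It reached the mean of 1 FPKM needed for testing only through the E3-KO samples, so its call there is not read as a rise. Lrp2, an endocytic receptor of visceral endoderm, rose in all 3 (0.98, 0.93 and 1.12). Cited1 rose in E3-KO (0.84), and the keratin Krt19 fell in E2-KO (-2.11). In E3-KO, the group with the highest Sparc, Col4a1 and Lama5, the called endoderm genes thus went both ways, with Apoe (-1.435) and Srgn (-0.68) lower. The part of such cells in the results was not tested, and in bulk RNA fewer cells of a type and less RNA per cell cannot be told apart.

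Markers of definitive endoderm and mesendoderm had 3 of 9 tested, of which Gsc fell in all 3 knockouts (-2.04, -1.30 and -1.51). Of 16 fibroblast and interstitial matrix genes, 7 were tested and 8 stayed below 1 FPKM in all samples. Col1a2, Col3a1, Dcn and Lum were among these 8, with no value above 0.114 FPKM. Within that list fibronectin (Fn1) fell in all 3 knockouts, from 360.1 and 383.0 FPKM in WT to 141.2 and 153.7 (E1-KO), 154.1 and 160.8 (E2-KO), and 189.2 and 229.1 (E3-KO). The fibroblast list as a whole summed to 432.8 and 455.2 FPKM in WT and 218.0 to 334.6 in the knockouts, and most of it was Fn1. By count, E1-KO had 2 of its genes higher (Acta2 included) and 1 lower, and E2-KO and E3-KO each had 3 higher and 1 lower. The medians were -0.008 (E1-KO), 0.51 (E2-KO) and 0.51 (E3-KO). Vim rose in E2-KO (0.55) and E3-KO (0.62). Acta2, an actin of contractile cells, lay at 0.122 and 0.127 FPKM in WT and at 6.19 and 2.42 in E1-KO, and it was tested only because of its level in E1-KO. Thy1 rose in all 3 (1.03, 0.51 and 1.06), and the fibrillar collagen chain Col5a1 rose in E2-KO and E3-KO (0.60 and 0.94), as Col4a1 did. The 5 endothelial genes measured summed to 54.4 to 65.1 FPKM in all samples, almost all Pecam1, which rose in E1-KO (0.26), and Tek fell in E1-KO and E2-KO (-1.49 and -1.19). The summed level of trophectoderm genes was 60.0 to 94.1 FPKM. Among the latter Gata3 rose in E3-KO (1.59) and Krt8 in E3-KO (1.16) and E1-KO (0.64), while Krt18 (-0.67 and -1.46) and Tfap2c (-1.01 and -0.64) fell in E1-KO and E2-KO. Tead4 fell in E3-KO (-0.53). Of the 9 trophectoderm genes 5 were tested, with 1 higher and 2 lower (E1-KO), 0 and 2 (E2-KO) and 2 and 1 (E3-KO). Their medians were -0.14, -0.14 and -0.06. Of 15 pluripotency genes, 10, 7 and 8 were lower and 0, 2 and 0 higher in the 3 knockouts, beside 23.0%, 21.9% and 30.8% of all tested genes lower and 15.0%, 14.2% and 13.9% higher. The medians were -0.65, -0.30 and -0.50. Klf4 (-0.97, -1.17 and -1.08), Tfcp2l1 (-1.01, -0.82 and -0.59) and Dppa3 (-2.45, -2.68 and -0.96) were lower in all 3. The genes called higher in E2-KO were Pou5f1 (0.42, limma-trend adjusted p = 0.0355) and Zfp42 (0.51, 0.0271), which passed in neither E1-KO nor E3-KO. Both lay above WT in all 6 knockout samples, as did 15.3% of tested genes. The part of these cell types and states in the results was not tested.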

How the data were processed

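Total RNA libraries of 8 samples, 2 in each of 4 groups taken from the titles, had been sequenced as paired ends, as the labels' protocols state. The deposited files of the authors hold 1 value for each gene and sample, taken as FPKM from the values and because the submitters' processing notes name Cufflinks 2.2.1 (with Trimmomatic 0.36, TopHat2 2.0.12 and the build mm9, without their roles). The annotation used and the use of strand are not given in the sources used here. Each file held 18774 rows of 17812 identifiers. Of 660 repeated identifiers, 575 kept the 1 row that lay in position order with file neighbours of the same chromosome and strand. Where no single row did so, the identifier was left out (85). No basement membrane gene was among the repeated identifiers. Symbols were matched for 17262 identifiers. Positions come from GENCODE M21 (GRCm38) by identifier, not from the authors' build.

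The 11272 genes whose mean reached 1 FPKM were tested with limma-trend (limma 3.58.1, R 4.3.3) on log2(FPKM + 1), with all 8 samples in 1 fit, the group as the only term and 4 residual degrees of freedom. Genes were called at a Benjamini-Hochberg adjusted p under 0.05. P-values rest on the spread between the 2 samples of a group, pooled over the 4 groups and moderated toward a trend over all tested genes. The 2 samples are called biological duplicates in the labels. Whether their spread holds differences between clones is not stated. Absolute depth is unknown and no counting interval is given. The script was tested on simulated data. Alternatives were the replicate block, the pair alone, 3 scalings, no variance trend, other filters, a pseudocount of 0.1, summed repeated rows, leaving out chromosome 6 and leaving out each sample. Named genes were all 10 members, from each further list up to 4 called genes with the largest change against WT, the 5 genes most like Col4a1 and Lama1, and Sox2. Others (Gata6, Srgn, Itga6, Itgb1, Rtraf, Pou5f1, Zfp42, Nanog, Vim, Tead4 and the silent markers) were chosen after their values were seen. The members and lists were chosen with earlier results of these data known. Figures used matplotlib 3.10.9. A listed item is not reported here.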

Additional observations from a re-analysis of the deposited data

Results flagged for a closer look

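Knockouts that had each been set against WT differed from one another in 9 direct tests of the 10 genes by limma-trend. E3-KO was above E1-KO for Col4a1 (0.65 on the log2 scale), Lama1 (0.83), Lama5 (0.85), Nid1 (0.53), Hspg2 (0.33) and Sparc (0.52). It was also above E2-KO for Lama5 (0.67) and Sparc (0.61). E2-KO was above E1-KO for Lama1 (1.146). In each of the 9 the 2 samples of the higher group lay above both samples of the lower group. Since the 9 were picked by the test on these same samples, that separation is no further support. The differences of Lama1 and Lama5 between E3-KO and E1-KO and of Lama5 between E3-KO and E2-KO passed under all 19 alternatives tried, and each of the other 6 was lost under at least 1.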

How the results depend on the processing

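None of the 32 called differences of the 10 genes changed direction under the 19 alternatives tried, and 14 of the 23 against WT stayed called under all of them in which they were tested (Col4a1, Col4a2 and Lamb1 have means under 5 FPKM and drop out of the stricter filter). These were Lama1, Hspg2 and Sparc in all 3 knockouts, Lamb1 and Nid1 in E1-KO, Nid2 in E2-KO and E3-KO and Col4a1 in E3-KO. Samples with the same replicate number did not deviate together (mean correlation 0.005, range -0.042 to 0.09 over 6 pairs of groups). With the replicate block, 4058, 3854 and 4809 genes were called against WT, and 31, 2685 and 1525 between E2-KO and E1-KO, E3-KO and E1-KO, and E3-KO and E2-KO.

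For E2-KO against E1-KO, 94 genes were called, but 1 with the pair alone, 1 with all genes above 0 and 58 among genes whose mean reached 5 FPKM, and 0 of the 10 members in the first 2 of these. For E3-KO against E2-KO the pair alone gave 708 genes and 1 member. Leaving out 1 sample gave 2041 to 4673 genes and 5 to 8 members in E1-KO, 1871 to 4452 and 4 to 8 in E2-KO, and 2829 to 5349 genes and 5 to 7 members in E3-KO. Between knockouts it gave 2 to 261 genes and 0 to 1 members, 1306 to 3289 and 3 to 7, and 983 to 1546 genes, in the order above. Fewer samples leave fewer residual degrees of freedom.

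Differences that had not passed changed sign as follows. Lamc1 for E3-KO went to 0.130 with median-ratio scaling and 0.0202 when samples were scaled without the 50 highest genes. Between E2-KO and E1-KO it went to -0.0250 with quantile normalization and -0.0231 without the 50 highest genes, where Lamb1 went to -0.00194. Nid2 went to 0.0341 (quantile), 0.0591 (median ratio) and 0.0340 (without the 50 highest) between E3-KO and E1-KO, and to 0.0978, 0.0755 and 0.101 between E3-KO and E2-KO, where Hspg2 went to 0.0077, 0.0148 and 0.0396. Leaving out 1 sample gave Col4a2 ranges of -0.337 to 0.119 (E1-KO), -0.0107 to 0.125 (E2-KO) and -0.0617 to 0.394 (between these). Lamc1 ranged from -0.101 to 0.0181 for E3-KO and from -0.0568 to 0.0874 between E2-KO and E1-KO, and Lamb1 from -0.0483 to 0.102 there. Nid2 ranged from -0.0582 to 0.00085, -0.0918 to 0.00529 and -0.0631 to 0.0340 between knockouts in the order above. Between E3-KO and E2-KO, Nid1 ranged from -0.00282 to 0.337 and Hspg2 from -0.164 to 0.0171. A lone sample left in a group is assumed to vary like the others. The cause was not tested.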
